A study of Mus musculus with 6 samples.

Results

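Ackr4 trophocytes of the small intestine were examined among sorted TSLP reporter-positive cells of the lamina propria, the connective tissue under the gut epithelium. They were chosen by measured values, from the unique molecular identifier (UMI) counts of each cell. A barcode had to hold 1000 to 7500 genes, 2500 to 40000 gene UMIs and under 10% mitochondrial UMIs. It then had to carry at least 1 Ackr4 UMI, at least 1 UMI of 2 or more of the 4 genes Cd34, Grem1, Fgf7 and C3, and no UMI of Pi16, Prox1, Ptprc or Myh11. Of 76832 small intestine cells that passed the filters, 18368 met this rule, and 102534 cells passed in the whole series.

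Trophocytes are fibroblasts that lie around and under the crypts. They are known for secreting Wnt pathway agonists and BMP antagonists, which keep epithelial stem cells dividing, while subepithelial fibroblasts nearer the villus make BMP ligands that favour differentiation. Ackr4 encodes an atypical chemokine receptor that takes up the ligands of CCR7 and CCR9 without signalling through G proteins. Cd34 marks many fibroblasts that lie away from the epithelium, Grem1 encodes a BMP antagonist, Fgf7 a growth factor for epithelium, and C3 the central complement protein.

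The cells came from Flare-TSLP mice on a C57BL/6 background, in which an internal ribosome entry site and tdTomato were inserted into the 3′ untranslated region of Tslp. The study's methods describe the mice as young adults of both sexes, and every library carried the same reporter allele, so no library lacked it. There were 2 libraries of proximal small intestine (proximal jejunum), 2 of distal small intestine (distal ileum), 1 of cecum and 1 of large intestine. All cells had been sorted for tdTomato, so the reporter chose the cells in every group. Fibroblasts without reporter signal were thus selected against, but whether any passed the sort was not tested. The libraries also held 838 small intestine immune cells without a tdTomato UMI. Each library pooled cells that carried hashtag antibodies, and nothing in the labels says which animal a hashtag marks, so p-values measure the spread between libraries. The first library of each small intestine region carried one set of 3 hashtags and the second library another set of 3.

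Median depth was 6772 to 9413 gene UMIs per filtered cell over the 6 libraries. The second library of each small intestine region stood apart in its composition: cells with Prox1 and Lyve1 UMIs and no Ptprc UMI, the pattern of lymphatic endothelium, numbered 6219 and 7740 there and 2991 and 1030 in the first libraries. Between 38 and 118 barcodes were shared by any pair of libraries. Among trophocytes, 5.75 to 13.2% were called doublets by Scrublet and 5.12 to 14.4% carried several hashtags. A hashtag could not be called in 20.6 to 50.9% of trophocytes, compared with 13.1 to 28.8% of all small intestine cells.

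Trophocytes were a variable share of the sort, and the replicate libraries of a region differed more than the regions did. They made up 28.3% of cells in proximal library 1 (exact 95% binomial interval 27.6 to 29.0%) and 16.01% in proximal library 2 (15.5 to 16.6%). In distal libraries 1 and 2 they made up 38.4% (37.8 to 39.1%) and 11.9% (11.5 to 12.4%), where all such intervals cover counting error only. Both distal values lay outside the proximal range, one above and one below it. The mean was 22.2% ± 8.69 (SD, n = 2) proximally and 25.2% ± 18.7 (SD, n = 2) distally. The difference of 3.03 percentage points gave p = 1.0 in a two-sided exact permutation test, whose smallest possible p with 2 against 2 is 0.33. When cells with a Prox1, Ptprc or Myh11 UMI were taken out of the denominator, the shares were 40.1, 30.5, 43.8 and 25.3% and the difference turned to -0.74 points. The same rule took in 18.1% of cells in the cecum library and 8.05% in the large intestine library. Of the 2531 cecum cells 1596 held only 2 of the listed genes, and these cells are not called trophocytes here.

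**Figure D1:**
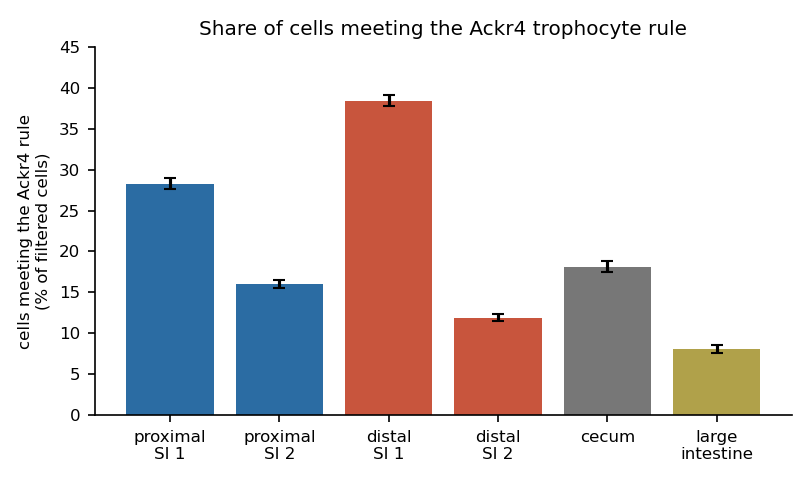
Share of filtered cells that met the Ackr4 trophocyte rule in each library, in percent, with exact 95% binomial intervals that cover counting error only. The highest and the lowest small intestine shares are both distal, at 38.4% and 11.9%.

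The rule drew on 25671 small intestine cells with an Ackr4 UMI, of which 71.6% became trophocytes. Of the 18368, 3024 held 2 of the 4 listed genes, 10078 held 3 and 5266 held all 4. A single Ackr4 UMI was the sole Ackr4 evidence in 5760 of them, 3406 had 2 and 9202 had 3 or more. Just outside the rule were 909 cells with Ackr4 and 1 listed gene and 685 with Ackr4 and none. A further 5709 met the listed genes but carried an excluded transcript, and 2778 of these were left out for Pi16 alone. Pi16, which encodes a secreted protein of universal fibroblasts found in many organs, was detected in 3960 cells, and 3138 of those also had an Ackr4 UMI.

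Cells at the edges of the rule differed from its centre, and these values are a description. The 2778 cells left out for Pi16 alone had 433, 673, 985 and 1122 CPM (gene UMIs scaled to the class total of that library) of Adamdec1, a protease-like gene of lamina propria fibroblasts, in proximal 1, proximal 2, distal 1 and distal 2. Trophocytes had 1209, 1308, 2842 and 3451 CPM, more in each library. For Cd81, a tetraspanin, the left-out cells had 367, 309, 452 and 287 CPM, above the trophocytes of the same library in all 4. Trophocytes with only 2 of the 4 listed genes lay on the other side, with 2685, 2802, 4592 and 4250.5 CPM of Adamdec1.

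Levels of the genes used in the rule are given as a description. Ackr4 (ENSMUSG00000079355; GRCm39 chromosome 9, 103961356 to 104004132, minus strand) was at 350.0, 302, 402 and 309 CPM in proximal 1, proximal 2, distal 1 and distal 2. Grem1 stood at 1109.7, 1441, 996 and 1072 CPM in the same order, and C3 at 1558 ± 120 CPM (SD, n = 4). Cd34 was nearly the same in the 4 libraries, at 402 ± 11.9 CPM (SD, n = 4), while Fgf7 was at 68.9 and 74.2 CPM proximally and 46.0 and 48.5 CPM distally. In the cecum library Grem1 was at 98.5 CPM, far under its level in every small intestine library, and in the large intestine library it was at 765 CPM.

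Ackr4 was also detected outside fibroblasts, in 6.46 to 16.5% of lymphatic endothelial cells and in 1.00 to 5.13% of immune cells of the small intestine libraries. Some lymphatic endothelium and some B cells are known to express it, and whether these UMIs came from the cells themselves was not tested. Summed markers of other cell types in trophocytes were well under the level of those types: lymphatic endothelial markers came to 281 to 446 CPM against 13692 to 15391 CPM in the lymphatic gate, and immune markers to 716 to 1017 CPM against 133212 to 231979 CPM in the immune gate. Epithelial markers summed to 27.9 to 88.0 CPM and glial markers to 3.75 to 9.93 CPM. The trophocyte rule barred Prox1 and Ptprc, which are on the lymphatic and immune lists. The lymphatic gate in turn required Prox1 and Lyve1, and the immune gate Ptprc and Cd52. Part of both gaps was thus fixed in advance. The part of other cells' transcripts in the results was not tested.

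Cd81, the last marker of the label, was not used in the rule, and it was present. The label was chosen with earlier results of these data known, so the level of Cd81 is no independent check. Its UMIs were found in 46.4 to 65.8% of trophocytes per small intestine library. Cells that met the same rule except that they had no Ackr4 UMI are called Ackr4-negative counterparts here (17959 cells), and 9.82 to 16.8% of them had a Cd81 UMI. Trophocytes had 234, 224, 248 and 140.0 CPM of Cd81 in proximal 1, proximal 2, distal 1 and distal 2, and the counterparts had 56.6, 33.5, 34.7 and 24.7 CPM. Every trophocyte library was above every counterpart library. The log2 fold change was 2.64 ± 0.12 (SE from the fit to 4 libraries), with an edgeR adjusted p of 1.1e-05. The test was edgeR's quasi-likelihood test on summed counts with Benjamini-Hochberg adjustment. It gave all adjusted p-values here unless another method is named. Cd81 is also a transcript of other cells in the sort, with UMIs in 59.2 to 70.1% of lymphatic endothelial cells. It lies at chromosome 7, 142606314 to 142621672, plus strand.

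A class cut at 1 UMI can hold cells whose Ackr4 was missed, so cells were thinned to 2500 UMIs each and grouped by the Ackr4 UMIs that were left. This gave 20862 cells with 0, 6145 with 1, 2726 with 2 and 1907 with 3 or more, all meeting the rest of the rule. Adamdec1 averaged 4540 CPM at 0, 1691 at 1, 790.4 at 2 and 393 at 3 or more Ackr4 UMIs, and fell at every step in 4 of 4 libraries. Bmp5, a BMP ligand, averaged 176, 63.1, 29.3 and 15.0 CPM over the same steps, and Ereg, which encodes the growth factor epiregulin, 141, 66.1, 36.3 and 17.1 CPM, again with a fall at each step in 4 of 4 libraries. In the other direction, Cd81 averaged 101, 246, 326 and 377 CPM and rose at each step in 4 of 4 libraries. Ogn and Col8a1, which encode a small matrix proteoglycan and a short-chain collagen, rose from 305 to 1111 CPM and from 213 to 707 CPM. Gdf6, a member of the BMP family, went from 27.6 to 91.8 CPM, with a rise at each step in 4 of 4 libraries. The genes followed over the steps were picked by hand and not drawn from all genes, so these gradients are a description. Others that were followed moved less steadily. Fos and Egr1 rose at each step in 0 of 4 libraries, and Grem1 and Rspo2 in 2 of 4. All 4 of these genes were higher at 3 or more Ackr4 UMIs than at 0 in 4 of 4 libraries. Rspo3 and Wnt2b were nearly flat: the means were 134, 155, 144 and 133 CPM for Rspo3 and 32.5, 34.9, 33.5 and 33.2 CPM for Wnt2b. These steps come from the cells that were classed, so no test is given.

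**Figure D2:**
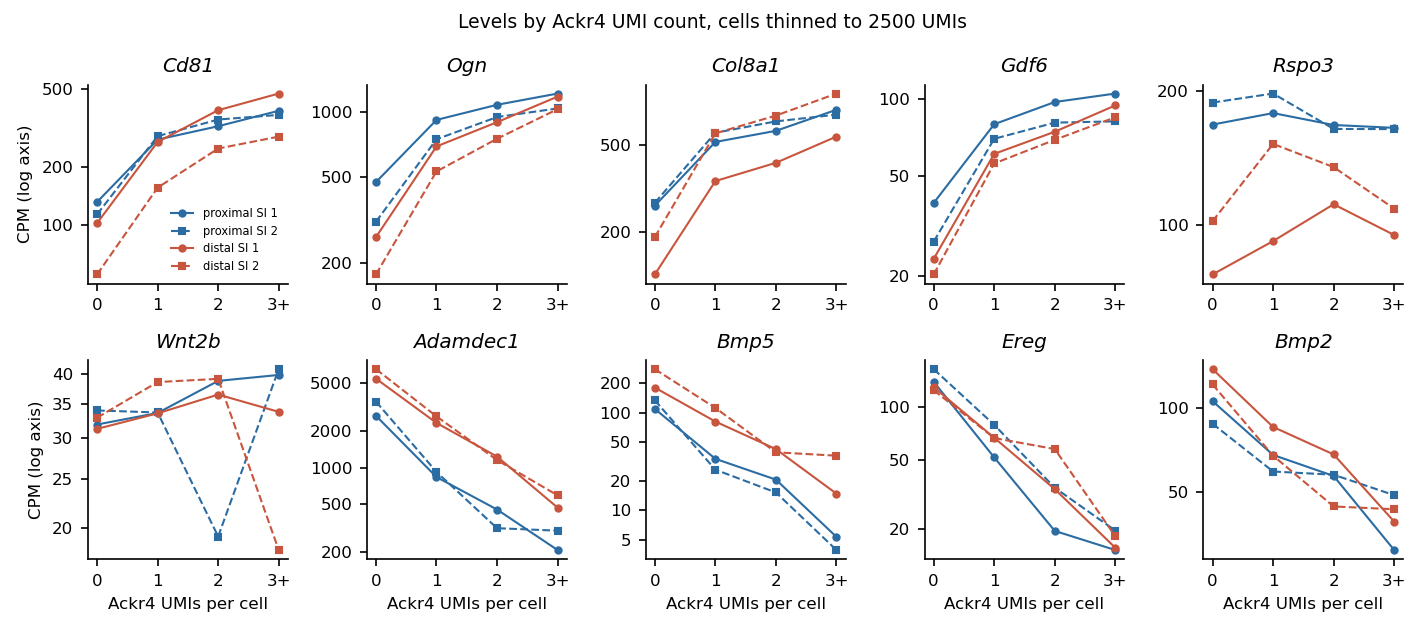
Mean level in CPM (log axis) of 10 genes in each small intestine library, by the number of Ackr4 UMIs per cell after thinning to 2500 UMIs. Lines are libraries. Cd81, Ogn, Col8a1 and Gdf6 climb with Ackr4, Adamdec1, Bmp5, Ereg and Bmp2 descend, and Rspo3 and Wnt2b do not move steadily.

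The contrast with Ackr4-negative counterparts asked how far Ackr4 divides cells that meet the rest of the rule. That rule requires no general fibroblast gene, and Flt1, a blood endothelial marker, was among the genes with the largest decreases. Nor were levels of the listed genes all matched. In proximal 1, Grem1 was at 1109.7 CPM in trophocytes and 312 in counterparts, C3 at 1489 and 919, and Cd34 at 403 and 393. Counts of the 4 libraries were summed per class and fitted with library as a block. The classes were defined by UMIs in the same cells, so a call describes how repeatably the classes differed over 4 libraries. Of 16702 genes tested, 39.6% passed an adjusted p of 0.05 (6606 genes): 21.0% higher and 18.6% lower in trophocytes. Trophocytes were also deeper cells, with median UMI counts of 8107.5 to 11059 per library against 7394 to 9295. With both classes thinned to 2500 UMIs and the rule applied again, 3342 genes passed. A list's counts below are to be read against those shares, and the median log2 fold change of all genes was -0.01.

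A second contrast was drawn with 2642 subepithelial fibroblasts, cells with a Pdgfra UMI, 2 or more of Procr, Agt, Foxl1 and Nrg1, and neither Ackr4 nor an excluded gene. Here 54.8% of 15525 genes passed (8514 genes), 28.5% higher and 26.4% lower in trophocytes, and 3562 passed after thinning. The median of all genes was near 0 on the log2 scale. A small overlap of 513 cells lay in both comparison classes.

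Among 11 tested Wnt pathway agonists, 7 were higher and 1 was lower than in counterparts, with a list median log2 fold change of 0.66. Rspo2, which encodes an R-spondin that keeps Wnt receptors on the cell surface, was at 103, 198, 84.3 and 178 CPM in trophocytes of proximal 1, proximal 2, distal 1 and distal 2, and at 59.97, 115, 43.6 and 104 CPM in counterparts. The level was higher in trophocytes of each library (log2 fold change 0.92 ± 0.03 (SE), edgeR adjusted p = 4.9e-06), although the replicate libraries spread about as widely as the classes. Rspo3 was at 174, 195, 94.1 and 119 CPM and differed by 0.54 ± 0.02 (SE), edgeR adjusted p = 1.05e-05, and Rspo1 was low, at 6.27 CPM on average. After thinning the Rspo1 call was lost (0.31, adjusted p = 0.13, edgeR). Rspo3 was nearly flat over the steps of Ackr4 UMIs in thinned cells, as given above. Wnt2b, the canonical Wnt ligand of the crypt base, did not pass: it was at 35.1 ± 2.20 CPM (SD, n = 4) in trophocytes and 34.6 ± 4.64 in counterparts (adjusted p = 0.11, edgeR). Wnt4 was the gene that was lower, at 8.48 CPM against 19.3 CPM.

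Against subepithelial fibroblasts, 6 of 10 tested agonists were higher and 2 lower, with a median of 0.96. Rspo2 was separated most among the R-spondins named here, at 8.57 CPM in subepithelial fibroblasts (log2 fold change 4.31 ± 0.10, SE). Wnt2b was higher by 0.58 ± 0.13 (SE, edgeR adjusted p = 0.0077). Wnt4 and Wnt5a, ligands that often act outside the canonical pathway, were lower in trophocytes. Wnt4 stood at 314 CPM in subepithelial fibroblasts, and its log2 fold change was -4.99 ± 0.15 (SE). Wnt5a changed sign between the contrasts, at 0.61 ± 0.07 (SE) over counterparts and -0.999 ± 0.25 (SE) against subepithelial fibroblasts (edgeR adjusted p = 0.012).

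The list of Wnt inhibitors, which holds secreted proteins together with the intracellular scaffold Axin2 and the membrane ligase Znrf3, went both ways. Of 8 tested, 1 was higher and 4 were lower than in counterparts, with Axin2 among the lower. Against subepithelial fibroblasts 5 were higher, Axin2 and Znrf3 included, and 2 were lower. Dkk2, which binds the Wnt co-receptors, was at 514, 485, 680.5 and 852 CPM in trophocytes and at 722 CPM on average in counterparts, a difference that did not pass (log2 fold change -0.09 ± 0.03, SE; adjusted p = 0.069, edgeR) but was -0.34 and passed after thinning (adjusted p = 3.29e-06, edgeR). It was at 78.7 CPM in subepithelial fibroblasts, and the log2 fold change to trophocytes was 3.43 ± 0.25 (SE, edgeR adjusted p = 3.14e-05). Dkk2 was present in both classes that meet the listed genes of the rule. In cecum and large intestine cells that met the rule it was at 3.91 and 6.67 CPM. Sfrp1, a secreted Wnt-binding protein, was at 2141 ± 191 CPM (SD, n = 4). Frzb, of the same family, was lower in trophocytes in both contrasts (-1.67 ± 0.11 and -2.40 ± 0.09, SE).

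The list of the BMP family divided by member. It also holds Bmp1, a metalloprotease despite its name, and the related ligands Inhba, Inhbb and Gdf15. Against counterparts 3 of 11 tested were higher (Gdf6, Gdf10 and Bmp1) and 8 lower, and against subepithelial fibroblasts 4 of 12 were higher and 6 lower. The call for Gdf10 against counterparts was lost after thinning (0.22, adjusted p = 0.20, edgeR). Gdf6 was at 69.2, 61.3, 53.3 and 47.6 CPM in trophocytes, at 8.06 to 13.5 CPM in counterparts and at 0.72 to 4.23 CPM in subepithelial fibroblasts. No library of either other class reached a trophocyte library, and the log2 fold changes were 2.51 ± 0.14 (SE, edgeR adjusted p = 2.15e-05) and 5.51 ± 0.29 (SE, edgeR adjusted p = 8.22e-06). After thinning the first of these was 1.53. Bmp5 was at 50.9, 58.0, 96.1 and 158 CPM in trophocytes, 243 CPM on average in counterparts and 491 CPM in subepithelial fibroblasts, with log2 fold changes of -1.42 ± 0.13 and -2.32 ± 0.26 (SE). Bmp7 was close to 0 in trophocytes (0.48 CPM on average). Bmp2 was lower than in counterparts (-0.58 ± 0.06, SE), and its difference from subepithelial fibroblasts was 0.68 ± 0.16 (SE) at full depth and -1.03 after thinning, so that it has no settled direction.

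BMP antagonists and BMP-binding proteins were more often higher than lower. Of 12 tested, with Grem1 left out because the rule used it, 7 were higher and 1 lower than in counterparts, and 8 were higher and 3 lower than in subepithelial fibroblasts. Chrdl1, a chordin-like protein that binds BMPs, was at 26.1, 18.0, 25.6 and 17.4 CPM in trophocytes and at 2.13 to 3.96 CPM in counterparts. These ranges did not meet, and the log2 fold change was 3.12 ± 0.12 (SE, edgeR adjusted p = 6.38e-06). Chrd was higher by 0.37 and 2.86 on the log2 scale in the same order of contrasts.

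**Figure D3:**
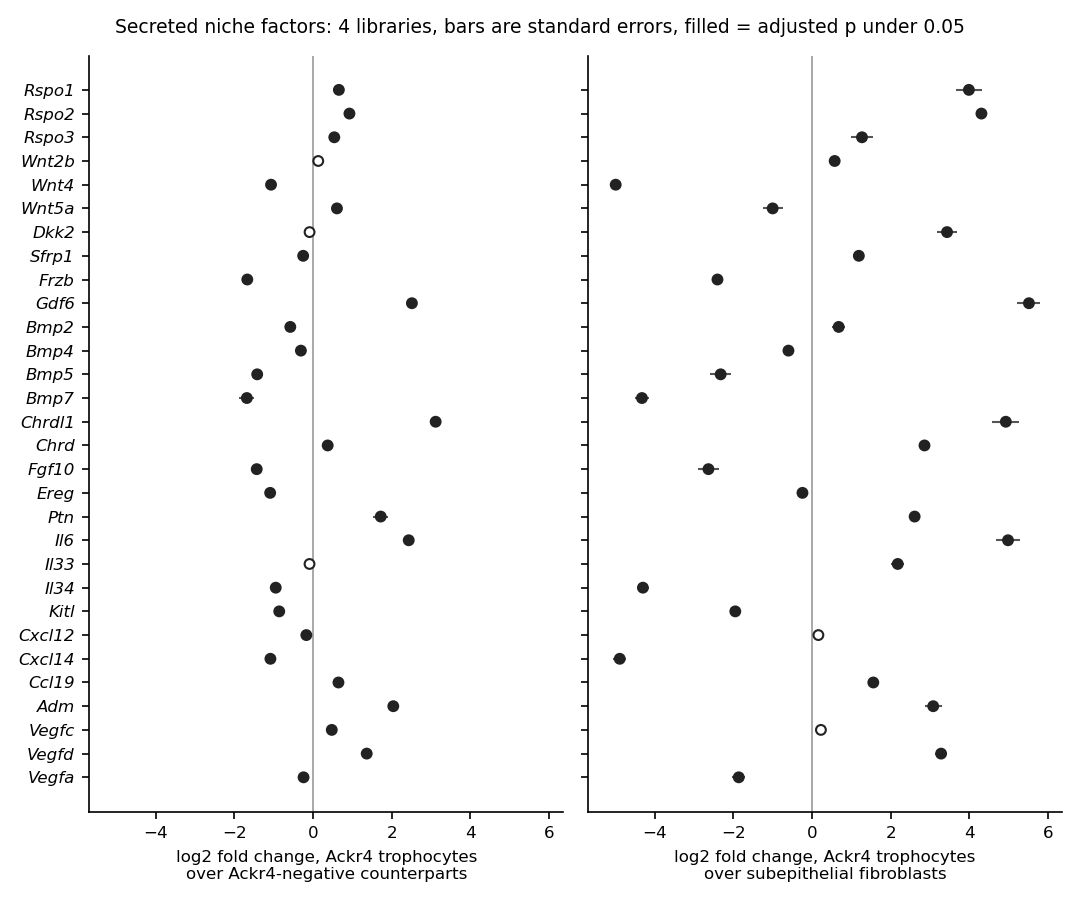
Log2 fold change of secreted factors in Ackr4 trophocytes over Ackr4-negative counterparts (left) and over subepithelial fibroblasts (right). Bars are standard errors from the fit to 4 libraries. Filled points passed an adjusted p of 0.05. Gdf6, Chrdl1 and Il6 lie to the right in both panels, and Wnt4, Bmp7 and Cxcl14 to the left.

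Among growth factors for the epithelium, 4 of 15 tested were higher and 6 lower than in counterparts. Ptn, the heparin-binding factor pleiotrophin, was at 51.0, 37.3, 14.8 and 24.6 CPM in trophocytes and at 9.98 ± 4.79 CPM (SD, n = 4) in counterparts (log2 fold change 1.72 ± 0.19, SE). Fgf10, which signals to epithelium as Fgf7 does, went against it, at 32.2 CPM in trophocytes, 88.9 in counterparts and 214 in subepithelial fibroblasts on average. Ereg averaged 75.0, 174 and 106 CPM in the same order, and it was lower in trophocytes than in counterparts (-1.09 ± 0.06, SE). Its difference from subepithelial fibroblasts (-0.24 ± 0.08, SE) passed, but the call was lost by DESeq2 (adjusted p = 0.053), with free RNA subtracted, without the count filter and without proximal 1, proximal 2 or distal 1 (adjusted p of 0.051, 0.086, 0.11, 0.084 and 0.064, edgeR), while after thinning it was -1.26.

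Of 17 tested cytokines of immune support, 5 were higher and 6 lower in trophocytes than in counterparts, and 7 were higher and 9 lower than in subepithelial fibroblasts. Il6, a pleiotropic inflammatory cytokine, was at 34.8, 49.6, 40.0 and 49.0 CPM in trophocytes and at 7.09 to 11.2 CPM in counterparts, with log2 fold changes of 2.43 ± 0.07 (SE) against counterparts and 4.98 ± 0.31 (SE) against subepithelial fibroblasts. After thinning the first was 1.39, and over the steps of 0, 1, 2 and 3 or more Ackr4 UMIs thinned cells averaged 20.4, 51.3, 65.4 and 41.0 CPM of Il6, with a rise at each step in 1 of 4 libraries. Il33, an alarmin for type 2 innate lymphocytes, was at 194 ± 32.7 CPM (SD, n = 4) and did not differ past the threshold from counterparts (adjusted p = 0.18, edgeR), but it was higher than in subepithelial fibroblasts by 2.18 ± 0.17 (SE). Il34 and Kitl, which encode ligands of the receptors CSF1R and KIT, were lower in trophocytes in both contrasts (-0.95 and -4.30 for Il34, and -0.86 and -1.95 for Kitl, log2).

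UMIs of Tslp itself were scarce in these libraries although the cells had been sorted on its reporter. The inserted cassette carries its own poly(A) signal after tdTomato, and the libraries read the 3′ end of transcripts. Its effect on the number of Tslp UMIs was not tested. In trophocytes Tslp was at 2.09, 1.01, 3.41 and 1.74 CPM in proximal 1, proximal 2, distal 1 and distal 2, and 1.19 to 2.80% of cells had a UMI. tdTomato was at 4.01, 2.86, 7.97 and 4.14 CPM, with UMIs in 3.10 to 6.25% of cells. Neither transcript had a UMI in 838 small intestine immune cells, which bounds the share of such cells with a UMI at 0.358% and says nothing of cells that express it below detection. Both were higher than in counterparts, by 1.12 ± 0.17 (SE, edgeR adjusted p = 0.0017) for Tslp and 1.42 ± 0.17 (SE, edgeR adjusted p = 0.0006) for tdTomato on the log2 scale, and higher than in subepithelial fibroblasts, by 1.06 ± 0.30 (SE, edgeR adjusted p = 0.020) and 1.82 ± 0.24 (SE). The Tslp call against subepithelial fibroblasts was lost without proximal 2, distal 1 or distal 2 (adjusted p = 0.055, 0.055 and 0.075, edgeR). At 1.01 to 7.97 CPM these differences rest on few molecules, and the proximal and distal levels did not differ past the threshold (adjusted p = 1.0 for Tslp and 0.85 for tdTomato, edgeR).

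Glp2r, the receptor of the gut hormone GLP-2, was detected in 27.4 to 36.8% of trophocytes, in 23.2 to 31.1% of counterparts and in 22.8 to 34.7% of lymphatic endothelial cells, and in 6.63 to 13.6% of immune cells. It was at 36.3, 42.0, 51.0 and 41.0 CPM in trophocytes. Although the difference from counterparts passed the test, it was 0.14 ± 0.04 (SE, edgeR adjusted p = 0.0255) on the log2 scale and trophocytes were higher in 2 of 4 libraries. The call was lost by DESeq2 (adjusted p = 0.10) and after thinning (adjusted p = 0.12, edgeR). Against subepithelial fibroblasts it did not pass (0.41 ± 0.30, SE; adjusted p = 0.29, edgeR) and turned to -1.23 after thinning (adjusted p = 0.0031, edgeR), while it was 0.80 without proximal 1 (adjusted p = 0.040, edgeR). Glp1r had a UMI in at most 0.07% of trophocytes of a small intestine library.

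The chemokine list holds ligands and the atypical receptors that take them up, and more of its genes were lower than higher. Of 19 tested, 2 were higher and 9 lower than in counterparts, and 4 were higher and 10 lower than in subepithelial fibroblasts, with the receptor Ackr1 among the 4 and Ackr3 among the 10. Cxcl14, a chemokine of villus fibroblasts, was at 25.7, 18.2, 24.8 and 30.6 CPM in trophocytes and at 693 to 1106 CPM in subepithelial fibroblasts (log2 fold change -4.89 ± 0.16, SE). Ccl19, a CCR7 ligand that the Ackr4 protein can take up, was at 16.2, 12.2, 22.5 and 7.65 CPM in trophocytes, above subepithelial fibroblasts by 1.56 ± 0.14 (SE) on the log2 scale. Its difference from counterparts was 0.65 ± 0.08 (SE) at full depth, but 0.17 after thinning, where the call was lost (adjusted p = 0.23, edgeR). Cxcl12, which retains CXCR4-bearing cells, was at 691 ± 73.0 CPM (SD, n = 4) and differed little (-0.17 ± 0.05 against counterparts, SE; 0.16 ± 0.06 against subepithelial fibroblasts, SE, adjusted p = 0.052, edgeR). The first call was lost without proximal 1 or proximal 2 (adjusted p = 0.10 and 0.12, edgeR), and the second difference passed in 7 alternatives, among them DESeq2, limma-voom and removal of doublets (adjusted p of 0.043, 0.025 and 0.032).

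Complement genes and genes of vessel growth were more often higher than lower. Of 15 complement genes tested against counterparts, 8 were higher and 2 lower, and of 14 tested against subepithelial fibroblasts 8 were higher and 3 lower. C7, a terminal complement component, was at 968, 853, 1119 and 1059 CPM in trophocytes and 581 ± 220 CPM (SD, n = 4) in counterparts (log2 fold change 0.97 ± 0.16, SE). Of 21 genes for vessel growth and guidance, 14 were higher and 6 lower than in counterparts. Adm, a vasodilator peptide, was at 65.0, 61.6, 77.8 and 55.7 CPM in trophocytes, while counterparts ranged from 14.6 to 21.3 CPM and subepithelial fibroblasts from 4.68 to 15.1 CPM. The classes did not overlap, with log2 fold changes of 2.04 ± 0.04 and 3.08 ± 0.21 (SE). After thinning the first was 1.23, and Adm rose at each step of Ackr4 UMIs in 1 of 4 libraries. Vegfd, a lymphatic growth factor, followed the same order (1.36 ± 0.10 and 3.28 ± 0.16, SE). Vegfc, its relative, was higher than in counterparts by 0.48 ± 0.05 (SE) and did not differ past the threshold from subepithelial fibroblasts (adjusted p = 0.21, edgeR), although after thinning it did (0.73, adjusted p = 0.0030, edgeR).

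Matrix genes set the trophocytes apart from subepithelial fibroblasts in 42 of 46 tested genes, 33 higher and 9 lower. Against counterparts 23 were higher and 15 lower. Ogn was at 802, 658, 621 and 476 CPM in trophocytes and at 71.8 to 160 CPM in counterparts (log2 fold change 2.75 ± 0.08, SE, edgeR adjusted p = 1.54e-06). Col8a1 was at 452, 497, 295 and 440 CPM and at 5.13 to 17.4 CPM in subepithelial fibroblasts (5.70 ± 0.32, SE). Both were above every library of the other class. Postn, a matricellular protein, and Has1, a hyaluronan synthase, were higher in both contrasts (1.28 and 4.27 for Postn, and 1.63 and 4.84 for Has1, log2), whereas Has2, the related synthase, was lower (-0.68 and -3.18). Tnc, which encodes tenascin C, was lower in trophocytes in both contrasts (-1.11 ± 0.10 and -1.483 ± 0.27, SE).

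Among matrix proteases the largest named gap was in Mmp10, a stromelysin, at 58.7 CPM in trophocytes and 1979 CPM in subepithelial fibroblasts on average (log2 fold change -4.88 ± 0.18, SE). Its relative Mmp3 went the other way (3.13 ± 0.30, SE). Adamdec1 was at 1209, 1308, 2842 and 3451 CPM in trophocytes and at 6056 ± 1500 CPM (SD, n = 4) in counterparts. Both distal values were above both proximal ones, yet all 4 values were under the counterpart value of the same library, and the log2 fold change was -1.47 ± 0.14 (SE, edgeR adjusted p = 0.00022). Hpgd, the enzyme that breaks down prostaglandins, was higher (1.59 ± 0.11 and 2.68 ± 0.28, SE), at 365 ± 20.9 CPM (SD, n = 4).

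Genes of retinoid and prostanoid metabolism were split. Of 22 lipid and retinoid genes tested, 11 were higher and 10 lower than in counterparts, and of 21 tested against subepithelial fibroblasts 10 were higher and 8 lower. Aldh1a1, Aldh1a2 and Aldh1a3 encode related enzymes that make retinoic acid, and they did not move together. Aldh1a1 was higher in both contrasts (0.36 ± 0.03 and 1.27 ± 0.12, SE), whereas Aldh1a3, at 150.3, 125, 115 and 117 CPM in trophocytes, was lower (-1.08 ± 0.07 and -2.47 ± 0.11, SE), and Aldh1a2 was lower too (-0.71 ± 0.03 and -0.45 ± 0.08, SE). Ptgs1, a prostaglandin synthase, was at 20.7, 18.2, 22.6 and 28.4 CPM in trophocytes and at 229 CPM on average in subepithelial fibroblasts (-3.12 ± 0.12, SE), while Ptgis, the prostacyclin synthase, was higher in trophocytes by 1.41 ± 0.12 (SE).

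Markers of other cell types moved with the contrasts and are given beside them. The first counts are against counterparts. Of 8 tested blood endothelial markers 7 were lower in trophocytes and none higher, with a summed level of 84.0 to 144 CPM in trophocytes and 161 to 555 CPM in counterparts. Of 7 tested smooth muscle markers 6 were lower, and of 7 pericyte markers 5 were lower and 1 higher. Of 9 tested epithelial markers 6 were lower and none was higher. Of 8 tested immune markers 3 were lower and none higher, and of 9 lymphatic endothelial markers 2 were higher and 1 lower. The part of these markers in the other differences was not tested. Against subepithelial fibroblasts 5 of 9 tested lymphatic endothelial markers were higher (Sema3d, Pdpn, Lyve1, Mmrn1 and Reln) and none lower, with sums of 281 to 446 CPM in trophocytes and 193 to 353 CPM there, and with Prox1, barred by both rules, at 0. Of 8 immune markers Igkc and Cd79a were higher and 2 were lower, and of 8 epithelial markers 4 were lower. Of 8 blood endothelial markers 1 was higher and 3 were lower. Of 7 pericyte markers 2 were higher and 3 lower, and of 7 smooth muscle markers 1 was higher and 3 were lower. Their part was likewise not tested. Calcrl, a receptor component for adrenomedullin that endothelium also expresses, was at 235, 265, 341 and 420 CPM in trophocytes and 668 CPM on average in counterparts (-1.01 ± 0.09, SE). Against subepithelial fibroblasts Calcrl went the other way and passed as higher in trophocytes.

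The list of transcription factors also holds Hhip and Ptch1, which bind Hedgehog ligands at the cell surface. Of its 42 genes tested against counterparts 14 were higher and 19 lower, Hhip and Ptch1 among the lower. Of 41 tested against subepithelial fibroblasts 15 were higher, Hhip included, and 18 lower, Ptch1 included. Ebf1, an early B cell factor also used by fibroblasts, was at 864, 841, 515 and 644 CPM in trophocytes and 265 CPM on average in counterparts (1.59 ± 0.08, SE). Foxp2 was at 812 ± 64.0 CPM (SD, n = 4) and Osr1 at 55.0 CPM, both higher in both contrasts, and Tbx3, a T-box factor, was at 10.8 CPM against 139 CPM in subepithelial fibroblasts (-3.46 ± 0.10, SE). Of 24 immediate early and heat shock genes, which respond to tissue digestion, 22 were higher and 0 lower than in counterparts, and the same counts held against subepithelial fibroblasts. Fos was at 1971 ± 247 CPM (SD, n = 4) in trophocytes, 726 ± 176 in counterparts and 250 ± 129 in subepithelial fibroblasts, and its part in the other differences was not tested. Proliferation genes were low: 5 of 9 tested were lower than in counterparts and none higher, and Mki67 averaged 0.35 CPM.

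Outside the lists, Alk, Brinp3 and Slco1a4 were among the 8 genes with the largest increases in both contrasts. Alk, a receptor tyrosine kinase, was at 225, 176, 46.0 and 46.8 CPM in trophocytes and at 48.1, 23.4, 4.63 and 5.39 CPM in counterparts (2.92 ± 0.16, SE). It was at 1.00 CPM in cecum and 0.46 CPM in large intestine cells that met the rule. Brinp3 was at 92.2 ± 13.5 CPM (SD, n = 4) against 10.3 ± 4.06 in counterparts (3.31 ± 0.21, SE), and its log2 fold change over subepithelial fibroblasts was 5.96 ± 0.12 (SE). Adgrb3, an adhesion receptor named from the contrast with counterparts, was at 61.7 ± 7.35 against 5.16 ± 1.55 (3.70 ± 0.10, SE).

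Thinning changed the size of many of these gaps by over 1.5 times without turning them. The rule was applied again to thinned cells, so counterparts rose from 17959 to 20862 cells. The parts of depth and of changed membership cannot be told apart. In cells thinned to 2500 UMIs the log2 fold changes over counterparts were 1.87 for Adgrb3, 1.63 for Brinp3 and 1.19 for Alk. They were 1.61 for Cd81, 1.78 for Chrdl1, 1.59 for Ogn, 0.84 for Has1, 0.94 for Ptn and 0.96 for Fos, and these 9 genes still passed. Against subepithelial fibroblasts the thinned values were smaller for Hpgd (1.10), Has1 (4.16) and Vegfd (2.38). They were larger in size for Rspo2 (5.43), Dkk2 (5.11), Mmp3 (4.98) and Col8a1 (6.30). Brinp3 went from 5.96 to 11.55, a fitted value too large to be read as a measured gap. Among lower genes the thinned values were larger in size for Wnt4 (-6.64), Wnt5a (-2.15), Bmp5 (-4.22), Cxcl14 (-5.99) and Mmp10 (-5.89). The same held for Tbx3 (-4.94), Tnc (-2.46), Il34 (-5.25), Kitl (-2.54) and Frzb (-3.08).

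Universal fibroblasts with Pi16 and Dpp4 UMIs and without Ackr4 were nearly absent, with 28 cells over the 4 libraries and 6 to 8 per library, holding 300617 UMIs in all. Most Pi16-positive cells had an Ackr4 UMI and so could enter neither class. The test against these 28 cells called 3.45% of 13895 genes (479), 2.38% higher and 1.07% lower in trophocytes, while the median log2 fold change of all genes was 0.35. The balance of directions was not settled: 331 of the 479 were higher, against 210 of 417 with RLE size factors, 58 of 160 by DESeq2, 315 of 2416 by limma-voom and 167 of 181 after thinning. Of 9 tested universal fibroblast markers, 5 were lower in trophocytes and 1, Col15a1, was higher, with a median of -1.35. Mfap5, a microfibril protein, was at 201 ± 42.2 CPM (SD, n = 4) in trophocytes and 929 ± 406 in the Pi16 class (log2 fold change -1.93 ± 0.28, SE), a call that was lost after thinning (-1.19, adjusted p = 0.25, edgeR). Cd248 and Ly6c1 differed by -1.56 ± 0.30 and -2.54 ± 0.31 (SE). Sfrp4, a secreted Wnt inhibitor, was at 2.40 CPM against 39.4 ± 5.65 (SD, n = 4), a log2 fold change of -3.88 ± 0.76 (SE). The 28 cells held only 12 UMIs of Sfrp4. Among markers of other cells, the immunoglobulin genes Igkc and Jchain (2 of 8 tested immune markers), Rgs5 of pericytes and Tagln of smooth muscle were higher in trophocytes. The immune list summed to 716 to 1017 CPM in trophocytes and 112 to 310 CPM in the Pi16 class, with Ptprc, barred by both rules, at 0, and the part of these transcripts was not tested. Ebf2 was lower by 5.97 ± 0.40 (SE) on the log2 scale, but the Pi16 class held 15.5, 529, 21.0 and 604 CPM of it, so 2 libraries carry that value.

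Against the Pi16 class, 2 of 9 tested Wnt agonists were higher in trophocytes and 1, Wnt5a, was lower. Of 8 Wnt inhibitors 3 were higher and 1 lower, and of 12 BMP antagonists the 2 that passed, Fst and Fstl1, were lower. None of 24 immediate early and heat shock genes passed. Gdf6, Chrdl1, Il6, Adm, Ogn, Col8a1 and Postn were not among the list genes that passed against this class. With 28 cells, a missing call does not show that the classes are alike. Among named genes, Dkk2, Sfrp1, Cxcl12 and Rspo3 were higher in trophocytes by 3.12 ± 0.36, 2.14 ± 0.28, 2.33 ± 0.31 and 1.63 ± 0.39 (SE) on the log2 scale, in 4 of 4 libraries each. The call for Rspo3 was lost by DESeq2 (adjusted p = 0.15), after thinning and without proximal library 2 (adjusted p = 0.21 and 0.063, edgeR). Some genes named above had the opposite direction here. Tnc (1.73 ± 0.35, SE, edgeR adjusted p = 7.59e-05), Adamdec1 (1.20), Bmp5 (2.16), Fgf10 and Kitl were higher in trophocytes. Has1, Ebf1, Il33 and Gdf10 were lower in trophocytes than in the Pi16 class. The 28 cells held only 7 UMIs of Bmp5 and 1 of Fgf10. Cd81 did not differ past the threshold (adjusted p = 0.51, edgeR). It was lower in trophocytes (log2 fold change -0.43) against a wider class of cells with 2 or more Pi16 UMIs (adjusted p = 0.0053, edgeR). Alk had no UMI in the 28 cells. With the libraries pooled and a floor of 3 counts over the group, Alk was at least 11.98-fold higher in trophocytes. Its trophocyte level was lower distally than proximally, so this is no bound for each library. Leaving out proximal library 2 or distal library 2 lowered the number of called genes to 191 and 254, and that wider class, chosen after seeing the data, gave 1422.

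Proximal and distal trophocytes differed in genes that included homeodomain factors. Of 17113 genes tested with 2 libraries against 2, 0.245% passed (42 genes), 0.117% higher in distal and 0.129% higher in proximal, and 1017 had an unadjusted p under 0.05. Leaving out 1 library raised the count, to 115 without proximal 1, 160 without proximal 2, 165 without distal 1 and 246 without distal 2, and DESeq2 gave 246. With the replicate number as a block 624 passed. Same-numbered libraries carried the same hashtag set, but the labels do not say that a number marks an animal or a day. The 2 regions did not overlap in 5239 genes (30.6%), so absence of overlap alone says little. Hoxc8 (chromosome 15, 102898851 to 102902543, plus strand) was at 12.3 and 6.86 CPM proximally and 85.0 and 88.1 CPM distally (log2 fold change 3.16 ± 0.27, SE; adjusted p = 0.020, edgeR). Its neighbour Hoxc6 was at 17.7 and 18.9 CPM proximally and 46.5 and 45.5 CPM distally (1.34 ± 0.13, SE; adjusted p = 0.025, edgeR). Hoxc9, further along the same cluster, had 0.02 and 0 CPM proximally and 7.46 and 7.53 CPM distally. Hoxa5, of the cluster on chromosome 6, was reversed, at 35.7 and 43.9 CPM proximally and 8.04 and 13.5 CPM distally (-1.91 ± 0.23, SE; adjusted p = 0.043, edgeR). Of 43 tested genes of the list of transcription factors 6 passed, 4 of them higher distally. Hox genes encode the homeodomain factors that set position along the body axis, and Pitx1, another homeodomain factor, was also higher distally (1.60 ± 0.16, SE). The Hoxc8 pattern was present in the other classes: counterparts had 21.97, 10.9, 114 and 113 CPM and subepithelial fibroblasts 23.2, 10.1, 133 and 124 CPM. Markers of other cell types also passed between regions. Fabp1, an epithelial fatty acid binding protein, was at 2.23 and 2.46 CPM proximally and 0.38 and 0.28 CPM distally, 1 of 11 tested epithelial markers, whose list summed to 27.9 to 88.0 CPM over the 4 libraries. Tagln, an actin-binding protein of smooth muscle, was at 20.4 and 16.2 CPM proximally and 41.7 and 49.8 CPM distally, and Hhip is also on the list of 8 smooth muscle markers, which summed to 114 to 192 CPM with Myh11, barred by the rule, at 0. The part of these cells' transcripts in the regional differences was not tested.

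Beside 0.245% of all genes, 2 of 46 tested matrix genes, 1 of 16 growth factors and 1 of 21 genes of the chemokine list passed between regions. Cxcl13, the B cell attractant that builds lymphoid follicles, was at 193 and 177 CPM in proximal and 32.1 and 16.5 CPM in distal trophocytes (-2.89 ± 0.33, SE; adjusted p = 0.039, edgeR). Fgf10 was higher distally, at 41.7 and 53.0 CPM against 16.4 and 17.4 CPM (1.479 ± 0.14, SE; adjusted p = 0.025, edgeR). After thinning the Fgf10 difference was 2.08 (adjusted p = 0.0033, edgeR). Tnc was at 142 and 138 CPM proximally and 368 and 561 CPM distally (1.72 ± 0.21, SE), and Col12a1, a fibril-associated collagen, followed it (1.59 ± 0.18, SE). Proximal trophocytes had more Alk (distal minus proximal -2.11 ± 0.17, SE), more Scara5, a ferritin receptor, at 341 and 243 CPM against 75.3 and 59.2 CPM, and more Hhip, a Hedgehog-binding inhibitor (-2.56 ± 0.23, SE). With members restricted to 2 or more Ackr4 UMIs 18 genes passed, and Cxcl13, Fgf10 and Tnc were among those just missed (adjusted p of 0.051, 0.051 and 0.068, edgeR). Cxcl13 also missed with doublets removed (adjusted p = 0.052, edgeR), and Hhip with free RNA subtracted (adjusted p = 0.11, edgeR).

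**Figure D4:**
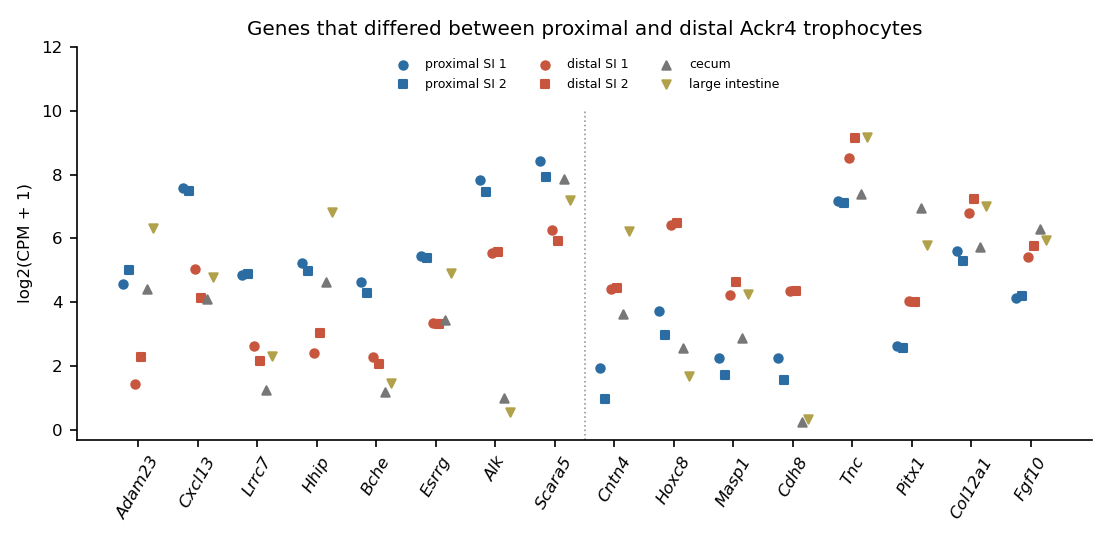
Levels, as log2(CPM + 1), of 16 genes that differed between proximal and distal Ackr4 trophocytes, 1 point per library, with cecum and large intestine cells that met the same rule for comparison. Left of the dotted line genes are higher proximally, right of it distally, and the cecum and large intestine points do not always continue the distal level.

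Between regions, the calls for some signalling genes depended on the method. Rspo3 was lower in both distal libraries (distal minus proximal -0.79 ± 0.15, SE; adjusted p = 0.17, edgeR), and it passed by DESeq2 (adjusted p = 0.00078), without the count filter and without distal library 2 (adjusted p = 0.0003 and 0.017, edgeR), and with the replicate number as a block (adjusted p = 7.57e-05, edgeR). Dkk2, higher distally by 0.61 ± 0.18 (SE; adjusted p = 0.47, edgeR), passed by DESeq2 (adjusted p = 0.019). Bmp5 was higher in both (1.21 ± 0.21, SE; adjusted p = 0.13, edgeR) and Wnt2b ranged from 32.9 to 37.9 CPM. None of 24 immediate early and heat shock genes passed by edgeR. In the single cecum and large intestine libraries, cells meeting the same rule had 3.35 and 12.4 CPM of Rspo2 and 2.35 and 8.16 CPM of Gdf6, under all 4 small intestine libraries, and 560 and 591 CPM of Cd81, above them. These are values without a test, since each organ had 1 library.

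Whether a class difference itself depended on region was asked with an interaction term. It passed for 7 genes against counterparts (0.0419% of those tested), 5 against the Pi16 class (0.036%) and 8 against subepithelial fibroblasts (0.0515%). At an unadjusted p under 0.05 there were 1056, 316 and 1112. Cxcl13 was one of them: in subepithelial fibroblasts it was at 125 and 112 CPM proximally and 148 and 81.6 CPM distally, so these ranges overlapped where those of trophocytes did not. The difference between the distal and the proximal log2 fold change was -2.94 ± 0.10 (SE, edgeR adjusted p = 0.00062), and the call held with each library left out.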

How the data were processed

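Single-cell 3′ RNA libraries (10x Genomics) were made by the authors from tdTomato-sorted lamina propria cells. The deposited matrices hold whole-number UMI counts per gene and barcode, made by the authors with Cell Ranger against mm39 plus tdTomato; the submitters' notes give version 8.1.0 and the matrix header 8.0.1. They list 33697 gene rows (33671 symbols, duplicates summed) and hashtag rows, which were kept out of gene totals. The study's methods describe later removing doublets, ambient RNA and contaminant clusters with almost no tdTomato-positive cells. The deposited counts were used as they are, without that filter on tdTomato.

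Cells were filtered and gated as stated, and counts were summed per library and class. Tests used edgeR 4.0.16 in R 4.3.3 (quasi-likelihood, TMM, filterByExpr with a minimum count of 10, Benjamini-Hochberg threshold 0.05), with library as a block between classes and none between regions; genes of a gate were left out of the tests between classes, and the test between regions kept them in the table, with no call read from them. Standard errors of fold changes were taken from the edgeR test, as the size of the change divided by the square root of its F statistic. Intervals of shares are exact 95% binomial. Precision was limited by 2 libraries per region. Scripts were tested on simulated data. Positions are from the GENCODE annotation of GRCm39.

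The members and the gene lists were chosen with earlier results of these data known. Named genes were fixed markers, up to 5 genes of each list with the highest level plus list genes past the threshold, and, in each direction of a test, up to 8 genes ranked by fold change that moved alike in every library and averaged at least 10 CPM. From these the text gives a selection. Alternatives were limma 3.58.1 (voom), DESeq2 1.42.0, other size factors, no count filter, thinning to 2500 UMIs, doublets removed (Scrublet in scanpy 1.11.5), free RNA subtracted, a stricter Ackr4 cut, each library left out and the replicate block. Removing cells with several hashtags, the wider Pi16 class and the interaction alternatives were added after seeing the data. Same-numbered libraries were not taken as pairs.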

Additional observations from a re-analysis of the deposited data

Results flagged for a closer look

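The interaction of region and class passed for 9 named genes, whose difference between trophocytes and another class was not the same in proximal and distal libraries (edgeR, adjusted over all genes tested, 2 libraries per region). Against Ackr4-negative counterparts the distal minus proximal difference of log2 fold change was 0.68 for Bmp5 (adjusted p = 0.045, edgeR), 1.60 for Fgf14 (adjusted p = 0.0019) and -0.56 for Lox (adjusted p = 0.045). Fgf14, an intracellular FGF family member, was at 100.1 and 131 CPM in proximal and 28.3 and 39.1 CPM in distal trophocytes, and at 36.3, 48.9, 3.31 and 4.73 CPM in counterparts, so it fell in both classes and further in counterparts. Fgf14 was also called by limma-voom (adjusted p = 0.0046). Bmp5 and Lox were missed by limma-voom (adjusted p = 0.054) and in some fits with a library left out. Such fits leave 1 library in a region, so a call that holds in them carries little weight.

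Against subepithelial fibroblasts the differences were -1.39 for Postn, 1.33 for Tnc, -2.94 for Cxcl13 and -1.23 for Mfap5. Tnc was at 754, 747, 755 and 1162 CPM in subepithelial fibroblasts of proximal 1, proximal 2, distal 1 and distal 2. By limma-voom Cxcl13 and Tnc passed (adjusted p = 0.00042 and 0.0077), and Postn and Mfap5 did not (adjusted p = 0.069 and 0.10). Postn and Tnc were missed in most fits with a library left out, and Mfap5 in all of them. Such fits leave 1 library in a region.

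Against the 28 Pi16 Dpp4 cells they were 2.76 for Thbs1 and -4.44 for Mmp10. By limma-voom both had an adjusted p of 0.84. Mmp10 had no UMI in the Pi16 cells of proximal library 1 and 34.2, 566 and 421 CPM in the others. The causes of these differences were not tested.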

How the results depend on the processing

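Depth and sample number limited the results: 2 libraries stood for each region, classes came from counts that thinning changes, and the Pi16 class held 28 cells. The causes of the changes given here were not tested.

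The regional difference in trophocyte share was 3.03 points; it was -0.74 with the other denominator, -10.2 to 16.3 with 1 library left out (-3.12 without proximal library 2, -10.2 without distal library 1), and kept its sign in the other 4 fits (1.41 to 2.76).

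The 42 genes between regions became 246 by DESeq2, 507 without a count filter, 18 with 2 or more Ackr4 UMIs and 115 to 246 with 1 library left out; they were 37 to 48 in the other alternatives. The replicate block gave 624 genes, all 42 among them. Same-numbered libraries carried the same set of hashtags, whose meaning the labels do not give. Deviations of same-numbered libraries correlated at 0.26 over 17113 genes with only 2 pairs, so the numbers were not taken to pair the samples.

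Against counterparts 6606 genes became 3342 after thinning and 1765 with no replicate block (4997 to 5568 with 1 library left out). Against subepithelial fibroblasts 8514 became 3562 after thinning (7290 to 7747 with 1 library left out). Against the Pi16 class 479 became 2416 by limma-voom, 160 by DESeq2, 181 after thinning, 234 with no replicate block, 1422 with the wider Pi16 class and 191 to 464 with 1 library left out. The 9 named interactions became 4 by limma-voom and 4 to 69 with 1 library left out (69 and 39 without proximal library 1 and 2, 4 and 5 without distal library 1 and 2).

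Of single-gene values, direction turned after thinning for Lyve1 against counterparts (-0.40) and for Bmp2 (-1.03) and Glp2r (-1.23) against subepithelial fibroblasts, and by limma-voom for Tslp against the Pi16 class (-1.56). The other single-gene values kept their direction or were not past the threshold: 1316 of those against counterparts kept their side of the threshold, 62 lost it and 16 gained it. The counts were 522, 94 and 3 against the Pi16 class, 1326, 21 and 17 against subepithelial fibroblasts, and 597, 33 and 11 between regions.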
